A study of Mus musculus with 224 samples.

Results

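Voluntary ethanol drinking without ethanol vapor was examined in 4 subcortical regions of the mouse brain: the central amygdala (CeA), the bed nucleus of the stria terminalis, written BNST, the hippocampus or HPC, and the nucleus accumbens or NAC. The arrays were those of mice that breathed air in the inhalation chambers, and drinkers were compared with nondrinkers, first within each region and then by the agreement of direction across regions. These were 85 of the 224 arrays of the series. Each array measured 1 region of 1 mouse on an Affymetrix mouse expression array, which reads many genes through several probesets. There were 12 Air Drinking against 12 Air NonDrinking arrays of the NAC, 11 against 8 of the HPC, 12 against 10 of the BNST and 12 against 8 of the CeA. They came from 14 Air Drinking and 12 Air NonDrinking mice by the mouse numbers of the labels, of which 8 and 6 had arrays of all 4 regions.

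All mice were male C57BL/6J bought at 10 weeks of age. Air Drinking mice had 6 weeks of baseline choice between water and 15% (v/v) ethanol in 2-h sessions, and such sessions again between cycles in the chambers. Air NonDrinking mice had only water. Both groups spent 16 h a day for 4 days of each cycle in chambers that delivered air, with pyrazole, an inhibitor of alcohol dehydrogenase (1 mmol/kg), and saline injected beforehand, and then 72 h without access to ethanol. Both CIE groups went through the same schedule with ethanol vapor (CIE, chronic intermittent ethanol), after injections of ethanol with pyrazole. The CIE Drinking group had the drinking sessions and the CIE NonDrinking group did not. They served here only for comparison, as did the prefrontal cortex (PFC). Tissue was taken on the last drinking day, before access to ethanol. How much each mouse drank was not used here.

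The NAC, BNST and CeA belong to the ventral striatum and extended amygdala, whose GABAergic neurons take part in reward, anxiety and stress, and release peptides such as dynorphin, CRF and CART. Ethanol raises GABA-A receptor currents, inhibits NMDA receptors, and raises dopamine release in the NAC. The BNST and CeA are best known for the negative affect of withdrawal, while the hippocampus serves memory of place and context.

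Markers placed the dissections, with exceptions. Drd1, Drd2, Ppp1r1b and Rgs9 of striatal projection neurons were highest in the NAC, where Drd1 had a mean log2 level of 12.47. Prox1, Fibcd1, Zbtb20, Neurod6 and Tdo2 were highest in the HPC, although Spink8 was slightly higher in the CeA (9.33, against 9.12 in the HPC). Prkcd, a marker of CeA neurons, was highest in the CeA (8.83), and Crh (9.78), Nts (9.97) and Tac2 (11.45) were highest in the BNST, but Sst, Cartpt and Dlk1 were highest in the NAC. The CeA also held the highest levels of Ttr (14.46), Kl (10.91) and Folr1 (10.83), which mark choroid plexus. The BNST held the highest levels of Pmch (11.93), Hcrt (10.26) and Avp (9.57), which mark the hypothalamus. Oxt, another such marker, was highest in the NAC (8.80, against 8.69 in the BNST). Slc17a6 (11.08) and Tcf7l2 (9.56), which are high in thalamus, were also highest in the BNST. Pairs of arrays of 1 region correlated at 0.9879 to 0.9985 (NAC), 0.9907 to 0.9981 (HPC), 0.9875 to 0.9984 (BNST) and 0.9686 to 0.9977 (CeA).

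No probeset passed LIMMA at an adjusted p of 0.01 between Air Drinking and Air NonDrinking mice in any of the 4 regions, so that 0% of the probesets tested was called in each. At an unadjusted p under 0.05 the NAC had 2556 probesets (5.68% of those tested), the HPC 3245 (7.3%), the BNST 4595 (10.3%) and the CeA 2519 (5.73%). The PFC of the same groups had 629 called probesets (1.4%). In the order NAC, HPC, BNST and CeA, the smallest adjusted p was 0.0289, 0.444, 0.32 and 0.653. In the same order, the median size of a log2 difference was 0.0378, 0.043, 0.048 and 0.0507, and its median standard error was 0.0554, 0.0566, 0.0542 and 0.0697. A typical difference was thus smaller than its standard error in all 4 regions.

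The probeset nearest to the threshold was 1436894_at of Ildr2, a transmembrane protein with an immunoglobulin-like domain, in the NAC. Its log2 levels were 6.26 at the lowest, 6.77 at the median and 7.08 at the highest of 12 Air Drinking arrays, against 6.07, 6.23 and 6.56 in 12 Air NonDrinking arrays. The log2 difference was 0.44 (SE 0.08, LIMMA adjusted p = 0.0289). The ranges overlapped, and the overlap lay in mice numbered 57 to 62, with 6.26 to 6.58, while the Air Drinking mice numbered 23 to 32 had 6.77 to 7.08, above all Air NonDrinking arrays. The other Ildr2 probesets, 1436221_at and 1436293_x_at, had log2 differences of 0.23 and 0.08 in the NAC.

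The genes of smallest p within a region are given here with their log2 differences. In the NAC these were Zfp668, Ifngr2, which encodes a chain of the interferon gamma receptor, and Scaf8, a binding partner of RNA polymerase II, with log2 differences of 0.21, 0.36 and 0.10, and Slc38a10, Grhpr and Fkbp2, with -0.21, -0.15 and -0.19. Slc38a10, a member of a family of amino acid transporters, had 10.51, 10.76 and 10.99 as the lowest, median and highest log2 levels of Air Drinking arrays of the NAC, against 10.85, 10.96 and 11.04 in Air NonDrinking arrays. In the CeA its difference had the opposite sign, with 0.15. In the HPC the smallest p belonged to Mlkl, the executor of necroptosis (0.22), Eid3 (0.20) and the ephrin receptor Epha1 (0.45), and to Mroh2a (-0.20), Rmi2 (-0.20) and Sec24b, a coat protein of vesicles that leave the endoplasmic reticulum (-0.13). In the BNST they were the zinc finger factor Yy1 (0.15), Krtap5-1 (0.20) and Lrrc36 (0.24), and Rad54b (-0.28), Pcyt1b (-0.17) and Gm5126 (-0.24). In the CeA they were Hmgb4 (0.22), the SUMO protease Senp1 (0.25) and the cohesin loader Mau2 (0.31), and 4931403M11Rik (-0.28), the complement factor Cfb (-0.20) and 4930529K09Rik (-0.22). None of these passed the threshold.

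Directions agreed across the 4 regions for 5737 of 43893 probesets (13.1%), of which Air Drinking mice were higher in 2843 and lower in 2894. Another 48.7% had 3 of 4 regions in 1 direction, and 38.2% had 2 of 4. These are counts of signs in regions that share mice, a description and no test of a shared drinking effect. With 1 probeset per gene, the one of highest mean, they agreed for 1898 of 17924 genes (10.6%), 602 higher and 1296 lower. The log2 differences of a pair of regions correlated across probesets at Pearson's r from -0.176, for NAC and CeA, to 0.111, for HPC and CeA, a description over probesets that are not independent and regions that share 9 to 11 Air Drinking and 7 to 10 Air NonDrinking mice. Sizes were lopsided where they were larger. Probesets that were higher by at least 0.1 in each region numbered 222 (0.506%), and those lower by as much numbered 2 (0.00456%). At 0.2 in each region, 11 were higher and 0 lower. Of the 222, only 9 were the brightest probeset of their gene. An unadjusted p under 0.05 was reached in all 4 regions by 2 probesets that were higher and 0 that were lower, and in 3 regions by 30 and 7.

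The mean drinking effect over the 4 regions was called for 2 of 43893 probesets (0.00456%), both higher in Air Drinking mice, beside 2832 at an unadjusted p under 0.05 (6.45%). The first was 1456091_at of Sec22c, a membrane protein of traffic between endoplasmic reticulum and Golgi. Its lowest, median and highest log2 levels in Air Drinking mice were 7.68, 7.96 and 8.23 (NAC), 7.23, 7.62 and 7.85 (HPC), 7.47, 7.64 and 7.96 (BNST), and 7.33, 7.58 and 7.80 (CeA). In Air NonDrinking mice they were 7.68, 7.87 and 8.01 (NAC), 7.29, 7.39 and 7.52 (HPC), 7.30, 7.59 and 7.81 (BNST), and 7.25, 7.47 and 7.52 (CeA). The groups overlapped in every region. The mean log2 difference of Sec22c was 0.16 (SE 0.03, LIMMA adjusted p = 0.00957), made of 0.13, 0.18, 0.16 and 0.16 in NAC, HPC, BNST and CeA. The brighter Sec22c probeset, 1436102_at, at a mean log2 level of 9.18, had a difference of 0.03. The second probeset, 1446904_at, has no gene symbol and had a mean difference of 0.21 (SE 0.04, adjusted p = 0.00957), with 0.18 to 0.23 in the 4 regions.

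Both calls split by mouse number. In the 4 regions in the order NAC, HPC, BNST and CeA, mean log2 levels of Sec22c 1456091_at were 8.09, 7.77, 7.81 and 7.64 in Air Drinking mice 23 to 32, 7.85, 7.36, 7.55 and 7.45 in Air Drinking mice 57 to 62, and 7.86, 7.40, 7.54 and 7.41 in Air NonDrinking mice. Those of 1446904_at were 5.72, 4.97, 5.45 and 5.19 in mice 23 to 32, 5.38, 4.46, 5.05 and 4.73 in mice 57 to 62, and 5.40, 4.52, 5.05 and 4.81 in Air NonDrinking mice. The means of mice 57 to 62 thus lay within 0.08 of those of Air NonDrinking mice, and with these mice alone as the Air Drinking group the mean differences were -0.00 for Sec22c and -0.04 for 1446904_at. With 1 value per mouse in place of arrays in a block, neither passed (adjusted p = 0.999 for each).

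**Figure D1:**
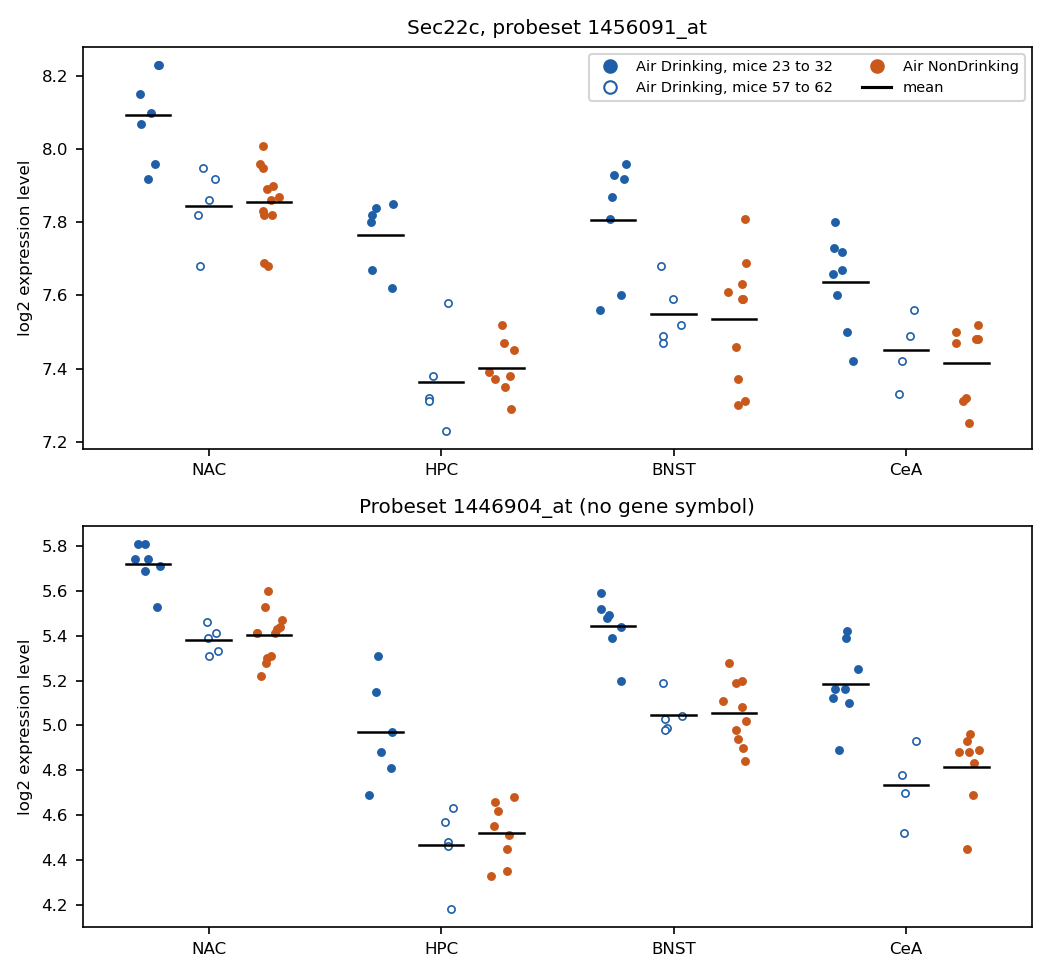
Log2 level of Sec22c probeset 1456091_at (top) and of probeset 1446904_at (bottom) in each array of 4 regions, with filled blue points for Air Drinking mice 23 to 32, open blue points for Air Drinking mice 57 to 62, orange points for Air NonDrinking mice and lines at the means. In each region the mean of mice 23 to 32 lies above the other means, which differ by at most 0.08.

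Among genes with 1 direction in the 4 regions, the 12 of smallest p in each direction did not pass (LIMMA adjusted p from 0.0822 to 0.282). The largest difference was that of Zfp882, a zinc finger protein, with 0.26 (SE 0.07, adjusted p = 0.0934) and 0.21, 0.21, 0.22 and 0.41 in NAC, HPC, BNST and CeA. Other transcription and chromatin genes on the higher side were Zfp148, a zinc finger factor (0.11), Mta1, a subunit of the NuRD deacetylase complex (0.06), Polr2f, a subunit shared by RNA polymerases (0.05), and Scaf8 (0.05). Pa2g4, a regulator of cell growth, had 0.13 and Fbxl18, an F-box protein of ubiquitin ligases, had 0.12. Other probesets had -0.00 for Zfp882, -0.00 to 0.03 for Zfp148, 0.01 for Mta1 and 0.01 for Polr2f. Those of Scaf8 had -0.01 and 0.02, and those of Pa2g4 had -0.01 to 0.01. Gabrg3, the gamma 3 subunit of the GABA-A receptor, had a difference of 0.17 (SE 0.05, adjusted p = 0.225).

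The split of Gabrg3 by mouse number was narrower than that of Zfp882. Even so, the drinking difference of Gabrg3 was larger in mice 23 to 32 than in mice 57 to 62. Its lowest, median and highest log2 levels in Air Drinking mice were 7.85, 8.20 and 8.65 (NAC), 6.35, 6.60 and 6.84 (HPC), 7.18, 7.35 and 7.88 (BNST), and 6.60, 7.05 and 7.51 (CeA). In Air NonDrinking mice they were 7.79, 8.02 and 8.50 (NAC), 6.23, 6.52 and 6.99 (HPC), 6.95, 7.18 and 7.50 (BNST), and 6.50, 6.85 and 7.55 (CeA). The medians of Air Drinking mice were the higher ones in each region, within overlapping ranges. Mice 23 to 32 minus mice 57 to 62 gave 0.18 for Gabrg3 (adjusted p = 0.067) and 0.77 for Zfp882 (adjusted p = 2.7e-21). Against Air NonDrinking mice, Gabrg3 had 0.24, 0.13, 0.37 and 0.22 in NAC, HPC, BNST and CeA of mice 23 to 32. In mice 57 to 62 it had 0.11, -0.04, 0.13 and 0.06 in the same order. The 3 dimmer probesets of Gabrg3 had mean drinking differences of -0.01, -0.00 and 0.02.

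On the lower side, Nfatc4, a transcription factor activated by calcineurin, had a mean difference of -0.12 (SE 0.03, adjusted p = 0.0822), with -0.09, -0.12, -0.04 and -0.21 in NAC, HPC, BNST and CeA. Its dimmer probesets 1423379_at, 1432821_at and 1454369_a_at had mean differences of 0.01, 0.02 and 0.00. Rmi2, a partner of the BLM helicase in genome maintenance, had -0.13 (SE 0.03, adjusted p = 0.0822). The lowest, median and highest log2 levels of Rmi2 in Air Drinking mice were 5.38, 5.59 and 5.90 (NAC), 5.16, 5.27 and 5.43 (HPC), 5.05, 5.27 and 5.44 (BNST), and 4.92, 5.22 and 5.51 (CeA). In Air NonDrinking mice they were 5.50, 5.64 and 5.92 (NAC), 5.31, 5.46 and 5.65 (HPC), 5.19, 5.32 and 5.64 (BNST), and 5.27, 5.32 and 5.61 (CeA). The Rmi2 median was the lower one in Air Drinking mice in each region, within overlapping ranges. Wfdc1, a secreted protein with a WAP domain, had -0.12, and Ptgdr, a receptor of prostaglandin D2, had -0.07. Idh3g, a subunit of the mitochondrial isocitrate dehydrogenase, had -0.04, as did its other probeset, 1416789_at. Mybpc2 (-0.11), Sult1e1 (-0.08) and 4933436H12Rik (-0.12) were at mean log2 levels of 4.37, 3.54 and 4.38, low on these arrays. Between mice 23 to 32 and mice 57 to 62, 6 of the 12 genes on the higher side and 0 of the 12 on the lower side were called, beside 3.93% of all genes. These genes were chosen by p in the same Air Drinking arrays, and the difference of the sides was not tested.

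**Figure D2:**
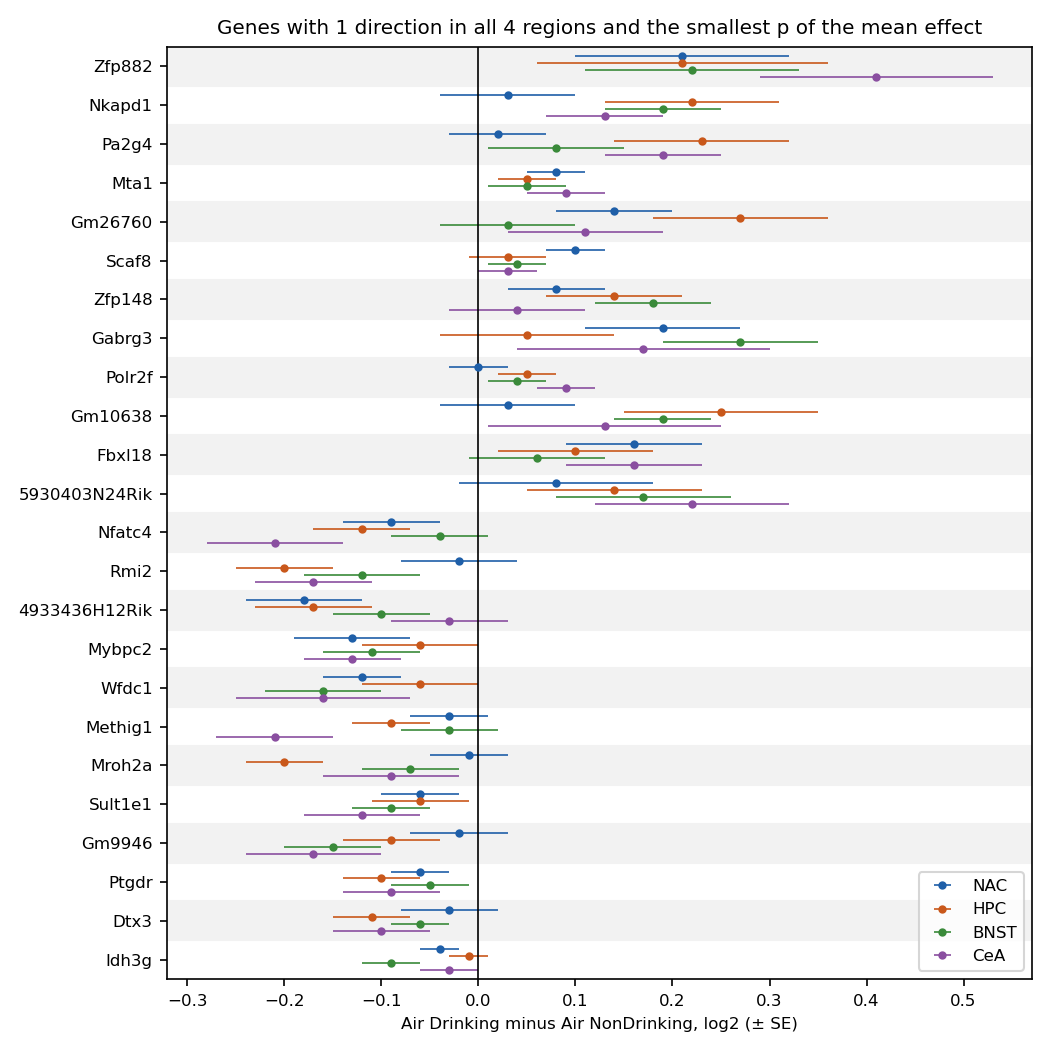
Log2 difference, Air Drinking minus Air NonDrinking, with its standard error, for the 12 genes of smallest p in each direction among those with 1 direction in all 4 regions, each region a colour. The points of Zfp882 lie between 0.21 and 0.41, the other genes mostly within 0.25 of 0, and no gene passed the threshold.

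None of the 38 gene lists had a member called for the mean drinking effect, and most list medians lay within 0.05 of the -0.01 of all 17924 genes, of which 241 were higher (1.34%) and 516 lower (2.88%) at an unadjusted p under 0.05. Markers of extended amygdala neurons had the highest median (0.18 over 10 genes), with 0 members at that p. Their medians were -0.16, 0.05, 0.14 and 0.53 in NAC, HPC, BNST and CeA, so that the sign was not the same in every region and the CeA, where cortical markers had a median of -0.31, had the highest. Opioid and nociceptin genes had 0.09 and 0 of 8. Other neuropeptides and receptors had 0.05, with 1 of 20 at that p, the oxytocin receptor Oxtr (0.23, SE 0.11, adjusted p = 0.662). The 9 GABA-A receptor subunits had -0.01 with 1 at that p, Gabrg3. Within the BNST, where their median was 0.15, 3 of the 9 were higher at that p, beside 3.24% of all genes. Within the HPC, where it was -0.06, 2 of the 9 were lower, beside 3.17% of all genes. The CRF and urocortin system had 0.00 over 7 genes, NMDA receptor subunits -0.01 over 6, ethanol-sensitive potassium channels -0.02 over 8, and enzymes of ethanol and acetaldehyde metabolism -0.03 over 11, each with 0 members at that p for the mean effect. Within regions, 2 of the 6 NMDA subunits were higher at that p in the NAC, beside 1.82% of all genes. Of the 11 enzymes, 3 were lower in the BNST, beside 8.15% of all genes. Genes of myelin and oligodendrocytes had a median of -0.05 over 11 genes, with 1 higher at that p for the mean effect. Within regions, 3 of these were lower in the HPC and 4 in the BNST, beside 3.17% and 8.15% of all genes.

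The lists of activity-induced and of vascular genes each had 2 members lower at an unadjusted p under 0.05, where 2.88% of all genes were. The 18 immediate early genes had a median of -0.00, with Klf4 at -0.13 (SE 0.04) and Ier2 at -0.07 as the 2 members at an unadjusted p under 0.05 (adjusted p = 0.36 and 0.765). Markers of endothelium and pericytes had -0.04 over 9 genes, with Rgs5 at -0.08 and Pecam1 at -0.07 at that p. Astrocyte markers had -0.03, and 3 of 10 were lower in all 4 regions against 0 higher, beside 7.23% lower and 3.36% higher of all genes. The 5 genes of blood cells had a median of -0.01, with 0 higher and 1 lower in all 4 regions. Among them, the globin gene Hba-a2 had 0.12 (SE 0.04, adjusted p = 0.332).

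Between mice 23 to 32 and mice 57 to 62, 11 of the 386 genes of the lists were called (2.85%), 7 higher and 4 lower, beside 3.93% of all genes. Of these, Malat1 and Crebbp had the largest differences, and the others were Gjc3, Cx3cr1, Kcnma1, Smarcc1, Cplx2, Aldh3a2, Dnaja1, Hspd1 and Ctcf. Malat1, a nuclear long noncoding RNA, had a mean drinking difference of 0.27 (SE 0.10, adjusted p = 0.422). In the NAC its log2 levels ran from 10.62 to 12.20 in Air Drinking mice and from 11.16 to 11.65 in Air NonDrinking mice, so that drinkers lay on both sides of nondrinkers. Mice 23 to 32 exceeded mice 57 to 62 by 1.02 (adjusted p = 2.2e-15). Crebbp, a histone acetyltransferase, had a mean drinking difference of 0.16 (SE 0.05, adjusted p = 0.369) and a difference of 0.67 between these mice (adjusted p = 2.3e-24).

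**Figure D3:**
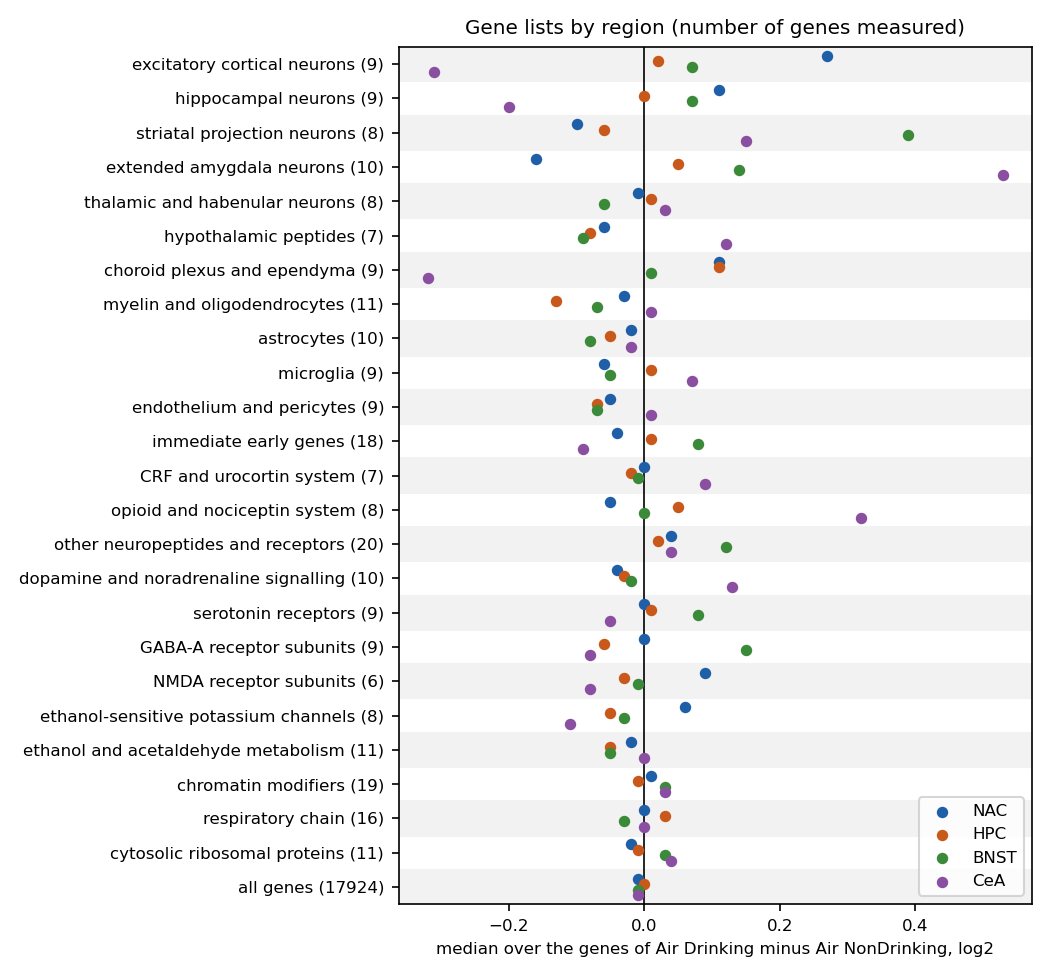
Median over the genes of a list of the log2 difference, Air Drinking minus Air NonDrinking, in each region, for 24 of the 38 lists and for all genes, with the number of genes measured in parentheses. Lists that mark cell types of certain regions spread most, from -0.32 for choroid plexus and ependyma to 0.53 for extended amygdala neurons, both in the CeA.

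Some markers of the dissected regions and of neighbouring tissue had wide differences, none of which passed the threshold. In the CeA, where differences of all probesets ran from -1.15 to 1.16, the 10 markers of extended amygdala neurons had 0.12 for Sst at the lowest and 0.85 for Nts at the highest, with 0.75 for Cartpt and 0.60 for Crh. At an unadjusted p under 0.05, 0 of the 10 were higher in the CeA, where 1.5% of all genes were. The peptide genes Pnoc and Gal, of other lists, had 0.62 and 0.92, while the cortical and hippocampal genes Neurod6, Fezf2 and Slc17a7 had -1.15, -0.68 and -0.55. As whole lists in the CeA, opioid and nociceptin genes had a median of 0.32 over 8 genes. Other neuropeptides and receptors had 0.04 over 20 genes there, and hippocampal neurons -0.20 over 9. The lowest, median and highest log2 levels of Neurod6 in the CeA were 5.26, 9.51 and 10.72 in Air Drinking mice and 7.93, 10.49 and 10.92 in Air NonDrinking mice. Cartpt in the CeA had 7.67, 9.66 and 10.85 in Air Drinking mice and 7.47, 9.02 and 9.98 in Air NonDrinking mice. These levels spanned several log2 units within a group.

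The whole list of 9 excitatory cortical genes had medians of 0.27, 0.02, 0.07 and -0.31 in NAC, HPC, BNST and CeA, with 3 of 9 lower at an unadjusted p under 0.05 in the CeA, where 2.9% of all genes were, and 0 in the NAC. In the NAC, Neurod6 (1.18), Tbr1 (0.92) and Slc17a7 (0.57) were on the higher side, and Oxtr, whose mean effect is given above, had 0.51 there. In the BNST, hypothalamic Pmch had 7.62, 12.15 and 13.65 as lowest, median and highest log2 levels in Air Drinking mice, against 8.53, 12.96 and 14.36 in Air NonDrinking mice. The BNST differences of hypothalamic peptides were -1.41 for Pmch and -1.03 for Hcrt, but -0.26 for Avp and -0.08 for Oxt, and the list of 7 had a median of -0.09 with 0 lower at an unadjusted p under 0.05, where 8.15% of all genes were. The 8 striatal genes had a BNST median of 0.39, with 0.54 for Drd1. The part of neighbouring tissue in the differences of peptide genes was not tested, and in bulk tissue fewer cells of a type and less RNA per cell cannot be told apart. The 9 genes of choroid plexus and ependyma had medians of 0.11 in the NAC and -0.32 in the CeA. At an unadjusted p under 0.05, 3 of the 9 were higher in the NAC, where 1.82% of all genes were. In the CeA, 0 of the 9 were lower at that p, where 2.9% of all genes were.

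The Air Drinking mice carried 2 runs of numbers, 23 to 32 (8 mice) and 57 to 62 (6 mice), with the Air NonDrinking mice at 45 to 56, and expression differed between the runs. The comparison of the runs was added after values had been seen, and the labels do not say what the numbers mean. In the NAC, HPC, BNST and CeA, 7, 6, 7 and 8 arrays of mice 23 to 32 were compared with 5, 5, 5 and 4 of mice 57 to 62. LIMMA called 1068 probesets (2.37%), 2115 (4.76%), 383 (0.862%) and 371 (0.844%) in these regions, of which 1028, 2064, 329 and 369 were higher in mice 23 to 32. With any 1 of mice 57 to 62 left out, the counts were 719 to 1013, 1717 to 2045, 147 to 282 and 144 to 207. The BNST had 194, 215, 231 and 147 without mouse 58, 59, 60 and 61, and the CeA had 144, 185, 147 and 207 without mouse 58, 59, 60 and 62, so that the counts there moved by over 1.5 times with 1 mouse. In the PFC, with 5 arrays of mice 23 to 32 and 6 of mice 57 to 62, 0 probesets were called (0%), with 1071 at an unadjusted p under 0.05. The mean over the 4 regions was called for 3850 probesets (8.77%), 2849 higher and 1001 lower in mice 23 to 32.

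Most calls against Air NonDrinking mice came from mice 23 to 32. These mice differed from Air NonDrinking mice in 419 probesets of the NAC (0.931%), 1105 of the HPC (2.49%), 39 of the BNST (0.0878%) and 255 of the CeA (0.58%). Mice 57 to 62 differed from the same mice in 1 probeset of the NAC (0.00222%), 4 of the HPC (0.009%) and 0 of the BNST and CeA (0%), from fewer arrays and with 3718 and 1127 at an unadjusted p under 0.05 in the BNST and CeA. By direction and size, 1454 probesets were higher by at least 0.1 in each region in mice 23 to 32 than in Air NonDrinking mice and 53 lower, while in mice 57 to 62 there were 44 higher and 470 lower. The 222 probesets that were higher by 0.1 in each region were chosen by the values of both runs together, so that their split by run is a description of the choice and no test. Of these, 216 were called between the runs, where 8.77% of all probesets were, and their median difference from Air NonDrinking mice was 0.46 in mice 23 to 32 and -0.18 in mice 57 to 62. In the PFC, where 0 were called between the runs, counts against Air NonDrinking mice were also unequal. They were 123 (0.273%) for mice 23 to 32 and 9 (0.02%) for mice 57 to 62, with 7437 and 7947 at an unadjusted p under 0.05.

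Probesets called between the runs in all 4 regions numbered 140, and every one was higher in mice 23 to 32, by 0.31 to 1.23 (median 0.67) over the regions. Those of smallest p included Usp7, a ubiquitin-specific protease that deubiquitinates MDM2 and p53. Its probeset 1437118_at had log2 levels of 8.54 to 8.91, 8.67 to 8.98, 8.36 to 9.00 and 7.99 to 8.41 in NAC, HPC, BNST and CeA of mice 23 to 32. In mice 57 to 62 they were 7.57 to 7.76, 7.29 to 7.79, 7.78 to 8.08 and 7.36 to 7.52 in the same order. In Air NonDrinking mice they were 7.76 to 8.23, 7.79 to 8.43, 8.04 to 8.46 and 7.33 to 8.05. The runs of Air Drinking mice did not overlap in any of the 4 regions, and the mean of Air NonDrinking mice lay between the means of both runs. The mean Usp7 difference between the runs was 0.96 (adjusted p = 2.2e-36), with 1.04, 1.21, 0.73 and 0.85 in NAC, HPC, BNST and CeA, against -0.15 in the PFC. The brightest Usp7 probeset, 1419920_s_at at a mean log2 level of 11.39, had a difference of -0.03, and all 6 other Usp7 probesets had -0.05 to 0.06.

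**Figure D4:**
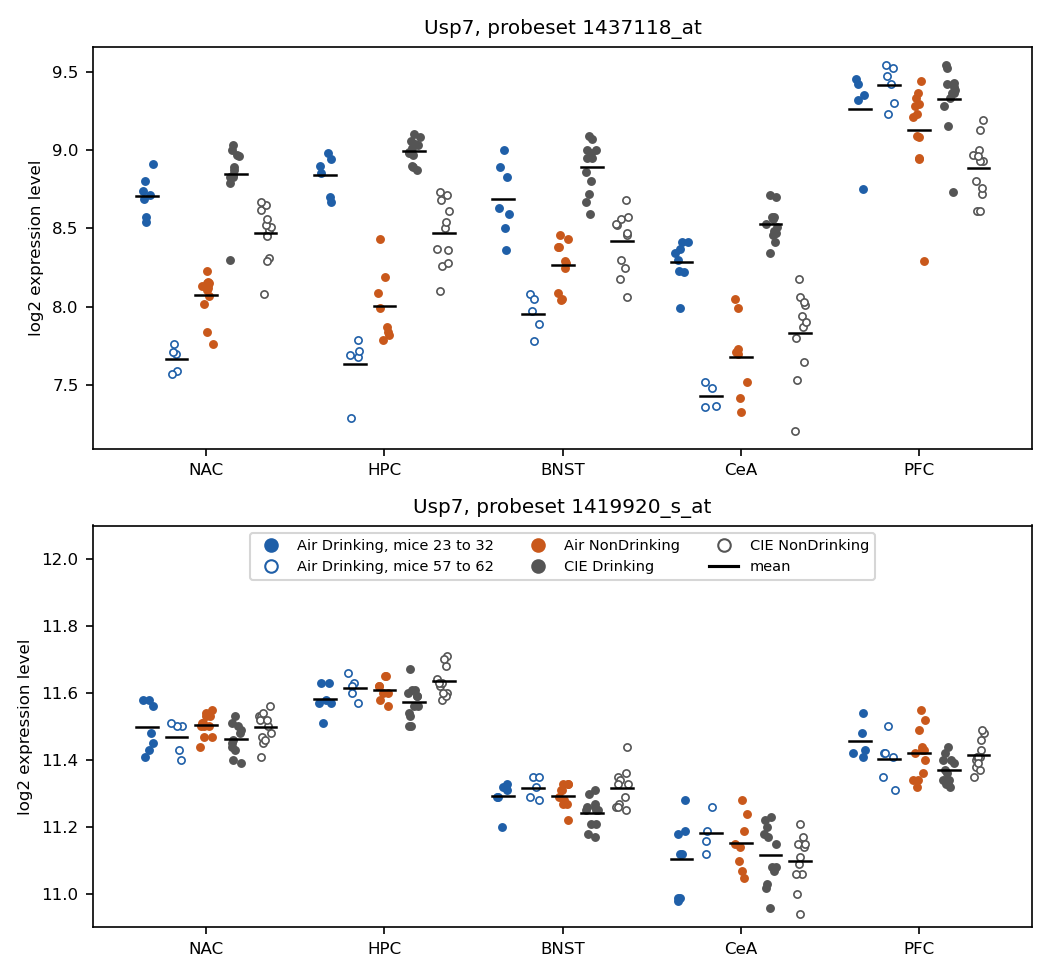
Log2 level of Usp7 probesets 1437118_at (top) and 1419920_s_at (bottom) in each array of 5 regions, by treatment group and, for Air Drinking mice, by mouse number, with lines at the means. In the top panel mice 23 to 32 lie beside the CIE Drinking mice and mice 57 to 62 beside or below the Air NonDrinking mice in 4 regions but not in the PFC, while the sets overlap in the bottom panel.

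Other probesets of smallest p in this set were those of Usp8 (0.74) and Usp1 (0.79), which are also deubiquitinating enzymes, Sf3b2, a U2 snRNP subunit (0.82), Smg1, a kinase of nonsense-mediated decay (0.92), Nktr, a cyclophilin-related protein (1.00), Bptf, a subunit of the NURF chromatin remodeler (1.07), the ETS factor Elf2 (0.78), the phosphatase Ptpn11 (1.05) and Mia3, which exports collagen from the endoplasmic reticulum (0.85). Nktr in the HPC had 7.79, 8.03 and 8.27 as lowest, median and highest log2 levels in mice 23 to 32, 6.59, 6.82 and 7.17 in mice 57 to 62, and 7.16, 7.45 and 7.65 in Air NonDrinking mice. The 3 sets of mice were in the same order in the NAC, with medians of 8.43, 7.35 and 7.82. By the rule of the brightest probeset, the leading genes were Thoc2 of the mRNA export complex TREX (0.78), 6820431F20Rik (0.68), Csnk2a1, a catalytic subunit of casein kinase 2 (0.64), Wdcp (0.53), Zfp882 (0.77), Mau2 (0.41), Zbtb5 (0.41) and Ppp2r5e, a subunit of protein phosphatase 2A (0.43). Other probesets of these genes did not all share the direction. Of those of Thoc2, 1438736_at was higher in mice 23 to 32 (0.40, adjusted p = 1.4e-13), while 1437634_at, at a mean log2 level of 9.34, was lower (-0.16, adjusted p = 3.3e-07). For Ppp2r5e, 1452788_at was higher (0.47), and 1428461_at and 1428462_at were lower (-0.10 and -0.12, adjusted p = 6.6e-04 and 0.00433). Csnk2a1 had 3 other probesets that were higher (0.47 to 0.52), and 1419036_at and 1419037_at, at levels of 9.69 and 9.77, had -0.07 and -0.03 and did not pass. Of the 3 other Mau2 probesets, 1456492_at was higher (0.69) and the rest had -0.05 and -0.01.

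In this set, 117 of 140 probesets had 1 symbol, for 107 genes, and 109 were not the brightest of their gene. Of the 100 genes of these 109, the brightest probeset had a median difference of -0.04, with 5 called higher and 8 called lower in mice 23 to 32. Across all probesets, the share called between the runs was 5.92% among the brightest of several probesets, 2% among genes with 1 probeset, 12.8% among probesets that were not the brightest and 10.9% among those without a single symbol. Of the called probesets that were not the brightest, 1664 were higher and 427 lower in mice 23 to 32, while of the brightest 173 were higher and 350 lower. In the PFC, the 140 had a median difference of -0.07, with 31 higher in mice 23 to 32, 0 called and 2 at an unadjusted p under 0.05. Over all probesets, the difference between the runs itself differed between the PFC and the mean of 4 regions in 834 (1.9%), 23 higher and 811 lower in the PFC.

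**Figure D5:**
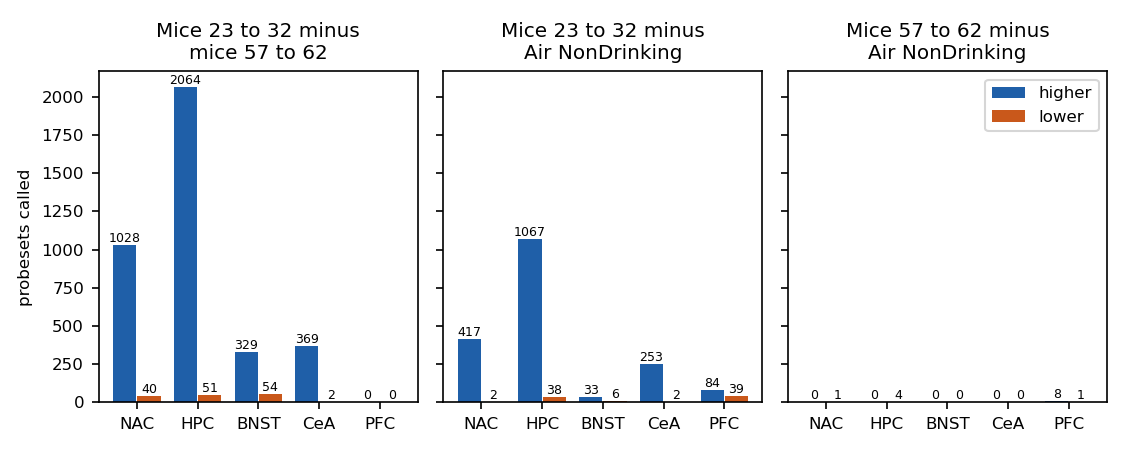
Number of probesets called by LIMMA at an adjusted p of 0.01 in each region, higher in blue and lower in orange, for Air Drinking mice 23 to 32 minus mice 57 to 62 (left), mice 23 to 32 minus Air NonDrinking mice (middle) and mice 57 to 62 minus Air NonDrinking mice (right). Calls are mostly higher in the first 2 panels, with 2064 in the HPC on the left, and number at most 8 a bar in the third.

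The 2 runs were also set beside the vapor groups. By LIMMA, mice 23 to 32 differed from CIE Drinking mice in 0 probesets of each subcortical region (0%), where unadjusted p was under 0.05 for 5666, 3418, 5322 and 4709 in NAC, HPC, BNST and CeA, and from CIE NonDrinking mice in 2 probesets of the HPC (0.0045%) and 0 in the other regions (0%). Mice 57 to 62 differed from CIE Drinking mice in 1885 probesets of the NAC (4.19%), 3107 of the HPC (6.99%), 1981 of the BNST (4.46%) and 1043 of the CeA (2.37%). The PFC had the other order, with 220 probesets between mice 23 to 32 and CIE Drinking mice (0.488%) and 56 between mice 57 to 62 and CIE Drinking mice (0.124%). From CIE NonDrinking mice, mice 57 to 62 differed in 363 probesets of the NAC (0.806%) and 1066 of the HPC (2.4%). They differed in 23 of the BNST (0.0518%) and 0 of the CeA (0%). In the PFC, counts against CIE NonDrinking mice were 87 (0.193%) for mice 23 to 32 and 313 (0.695%) for mice 57 to 62. These comparisons share arrays, so that their counts are given side by side only.

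The drinking effect after air was set against that after vapor, CIE Drinking minus CIE NonDrinking, as a mean over the 4 regions. The difference was called for 2 of 43893 probesets (0.00456%), both larger after vapor. Cdh8, a classical cadherin of synaptic adhesion (1422052_at), had a difference of 0.47 (SE 0.08, adjusted p = 0.00114) and a mean drinking effect after air of -0.00. Its mean log2 levels after air were 8.66 in Air Drinking and 8.55 in Air NonDrinking mice (NAC), 9.33 and 9.32 (HPC), 8.96 and 9.15 (BNST), and 7.98 and 7.92 (CeA). After vapor they were 9.09 in CIE Drinking and 8.74 in CIE NonDrinking mice (NAC), 9.69 and 9.36 (HPC), 9.41 and 8.99 (BNST), and 8.50 and 7.71 (CeA). CIE Drinking mice had the highest mean of the 4 groups in every region. Stau2, an RNA-binding protein of dendritic mRNA transport (1425533_a_at), had a difference of 0.39 (SE 0.07, adjusted p = 0.00317). Other probesets of both genes did not pass. Cdh8 also differed between mice 23 to 32 and mice 57 to 62, by 0.37 (adjusted p = 1.8e-05). Lower after vapor than after air at the smallest p were Banp (-0.23), the splicing factor Rbm5 (-0.10) and the centriolar Poc5 (-0.13), none of which passed.

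The F test of LIMMA called 0 probesets for a drinking effect that differed among the 4 regions (0%, smallest adjusted p = 0.095, with 3606 at an unadjusted p under 0.05). The smallest p belonged to Zmat5, Slc38a10, Dynll1, a light chain of dynein (-0.08 in the CeA and 0.13 in the BNST), Psmd10 and Arl2. The PFC differed from the mean of the 4 regions, in 219 probesets (0.499%), of which 122 had the larger difference in the PFC and 97 the smaller. Tnnc1, the troponin C of slow muscle, had 7.14, 8.15 and 9.18 as lowest, median and highest log2 levels in the PFC of Air Drinking mice, against 6.66, 7.13 and 7.85 in Air NonDrinking mice, while in the CeA these were 6.45, 6.67 and 6.85 against 6.39, 6.61 and 6.89. Its PFC minus subcortical difference was 0.88 (adjusted p = 1.9e-06). That of Tcap, a partner of titin, was 0.58 (adjusted p = 4.1e-05), and that of the homeodomain factor Cux2 of upper-layer neurons was 0.72 (adjusted p = 4.7e-05). Tchp (-0.30), the activity-induced Btg2 (-0.77) and Exosc1 of the RNA exosome (-0.20) had the smaller difference in the PFC. In the 4 subcortical regions, the mean drinking effects of these 6 genes were -0.04 to 0.05.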

How the data were processed

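The arrays were Affymetrix mouse expression arrays of bulk dissected tissue. The authors made the deposited log2 values with RMA, quantile normalized each region apart, removed arrays of low quality and adjusted for hybridization batch with ComBat. The hybridization batch of each array is not given in the sources used here, so values within batches could not be computed, and replicates are the mouse numbers of the labels. Levels of different regions were normalized apart, so region markers compare them only roughly.

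The values were used as deposited, with probesets lacking a value in a region left out of fits that use it (10, 574, 608 and 1068 of 45037 in NAC, HPC, BNST and CeA). LIMMA (limma 3.58.1 and statmod 1.5.0 in R 4.3.3) fitted the 4 treatment groups within each region across all probesets, with Benjamini-Hochberg adjustment and calls at an adjusted p of 0.01. Joint fits over regions took the mouse as a random block (correlation 0.0202 over 4 regions). Summaries used Python 3.11.15 with pandas 2.3.3 and numpy 2.4.6. The fits were tested on simulated data, in which the Air Drinking group had no split by mouse number. An SE is that of the fit, and precision is limited by the number of arrays.

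Of the probesets, 34945 had 1 gene symbol in the platform annotation, 932 several and 9160 none. A gene stood for its probeset of highest mean over the air arrays of 4 regions. Named genes were, among those with 1 direction in 4 regions, the 12 of smallest p in each direction; the 3 of smallest p per region and direction; the 5 of smallest p of the F test; the 3 of smallest p in each direction of the contrasts with vapor and PFC; list members of smallest p; and probesets of a fit with 5 calls or fewer. The members and lists were chosen with earlier results of these data known. The comparison of mouse numbers and its named probesets, of smallest p among those called in all 4 regions, were chosen after seeing the data. Alternatives were a mean level of at least 6, trend and robust variances, array or region weights, repeated quantile normalization, an adjusted p of 0.05, subsets of mice or regions, 1 value per mouse and no mouse block.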

Additional observations from a re-analysis of the deposited data

Results flagged for a closer look

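The drinking effect differed between the PFC and the mean of the 4 subcortical regions, by the LIMMA contrast of both, for the named genes Tnnc1 (0.88), Tcap (0.58), Cux2 (0.72), Tchp (-0.30), Btg2 (-0.77) and Exosc1 (-0.20), all as log2 differences of differences. The drinking effect after vapor exceeded that after air for Cdh8 (0.47) and Stau2 (0.39). The difference between Air Drinking mice 23 to 32 and mice 57 to 62 itself differed between the PFC and the 4 regions in 834 probesets, a comparison added after seeing the data.

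Groups of 11 or 12 arrays were not tested for an array far from the rest, which left out every Air Drinking group and the NAC. In 3 of 75 groups of Air NonDrinking arrays of the named genes, from HPC, BNST and CeA, 1 array lay far from the rest. Chance alone gives about 1 in 20 such groups. These were Gm26760 in the BNST of Air NonDrinking mouse 53 (5.43, the nearest array at 5.67), Scaf8 in the CeA of Air NonDrinking mouse 48 (9.83, the nearest at 9.96) and Methig1 in the CeA of the same mouse (4.42, the nearest at 4.18).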

How the results depend on the processing

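Counts of calls within regions stayed at 0 under a level filter, other variances, array weights, repeated normalization and fits of 2 groups only, while an adjusted p of 0.05 gave 1 in the NAC. With only mice 23 to 32 as Air Drinking mice they were 395, 1022, 32 and 205 in NAC, HPC, BNST and CeA, and with only mice 57 to 62 they were 1, 8, 0 and 0. The 2 calls of the mean effect became 0 with a mean of at least 6, trend and robust variances, weights by region, only the air groups, 1 value per mouse, only mice with 4 regions, or any 1 region left out, 5 at an adjusted p of 0.05, 2196 with only mice 23 to 32 and 211 with only mice 57 to 62. The cause was not tested. With only mice 57 to 62, differences changed sign for Zfp882 (-0.19), Nkapd1 (-0.05), Pa2g4 (-0.11), Fbxl18 (-0.14), 5930403N24Rik (-0.12), Sec22c (-0.00) and 1446904_at (-0.04).

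At an adjusted p of 0.05 the vapor contrast had 48 calls and the PFC contrast 1019. Array quality weights gave 1642, 673 and 851 calls between the mouse numbers in NAC, BNST and CeA. Without 1 mouse these counts were 719 to 1013 in NAC, 1717 to 2045 in HPC, 147 to 282 in BNST, 144 to 207 in CeA, 0 to 0 in PFC and 3221 to 4055 for the mean over regions.

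No paired analysis was possible because Air Drinking and Air NonDrinking mice share no mouse number. The mouse as a block joined regions only, and with no replicate block the mean effect had 2 calls, the F test 0, the vapor contrast 3, the PFC contrast 199, the mouse numbers 3912 and their PFC contrast 830.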
